A study of Homo sapiens with 6 samples.

Results

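The lung secretory lineage set examined here holds 10 genes: AGR2, AGR3, TFF1, TFF3, SPDEF, FOXA1, FOXA2, FOXA3, SCGB3A2 and NKX2-1. They were taken by symbol from the annotation of the array and are covered by 15 probes, out of 20045 genes and 30111 probes with 1 gene symbol. AGR2 was chosen because it was far lower in H-INV cells in these same data, so its values are given as a description without a test; the other 9 were chosen as secretory effectors and lung lineage factors. FOXA1 is among the genes that the study itself picked out from these arrays, and its direction is therefore not independent of that choice.

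RNA came from H460, an established human large cell lung carcinoma line, as 2 subpopulations with 3 sets of cells and 1 array each. H-INV cells were those that crossed a filter layered with basement membrane extract, and L-INV cells were those that stayed behind; the labels give 48 hours of invasion and 6 rounds of selection, whereas the study's methods describe a longer time and fewer rounds. Both subpopulations were grown in glucose-free RPMI-1640 with 10% FBS, and both derive from 1 line; the methods add that H-INV cells gradually lose their high invasiveness on long passage. The labels do not say whether the 3 sets of a subpopulation were selected independently, so p-values measure only the spread between these sets. All 6 arrays sat on 1 BeadChip with the H-INV arrays at positions next to each other, so subpopulation and chip position cannot be told apart.

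Secretory epithelial cells of the airway and gut fold large amounts of mucin and other export proteins in the endoplasmic reticulum. AGR2 and AGR3 are members of the protein disulphide isomerase family, and AGR2 is needed for mucin production in the mouse intestine. The trefoil factors are small peptides secreted with mucus that help a damaged epithelium to close, and SCGB3A2 is a secretoglobin released by club cells of the small airways. SPDEF drives goblet cell differentiation, FOXA1, FOXA2 and FOXA3 are forkhead pioneer factors of endoderm-derived epithelia, and NKX2-1 specifies lung and thyroid during development and is used to mark lung adenocarcinoma.

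Of the 10 members, 3 gave a signal that could be compared and 7 did not. AGR2, FOXA1 and SCGB3A2 had a probe above background, meaning a detection p under 0.01 against the negative control beads, on at least 3 of the 6 arrays, and all 3 were lower in H-INV cells than in L-INV cells. TFF1, TFF3, SPDEF, FOXA2, FOXA3 and NKX2-1 had no probe above background on any array, and AGR3 had 1 on a single array. Across the whole annotation, 8838 of 20045 genes (44.1%) had no probe above background on any array, against 6 of the 10 members. At these signals a difference in the 7 was not detectable, which does not show that their transcripts are absent.

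Before the values, the promoters of the members that carried signal are shown, together with that of AGR3, the neighbour and paralog of AGR2 that did not. Each is the 250 bases before the annotated start from RefSeq (GRCh38.p14), written 5′ to 3′ in the direction of the gene. The capitals mark CAAGTG or its reverse complement CACTTG, a word bound by NKX2 family factors, and the capitals would also mark the forkhead words TGTTTAC and TATTTAC or their reverse complements GTAAACA and GTAAATA, which do not occur in these 4 windows. AGR2 lies at chr7:16805000-16805249 on the minus strand, AGR3 at chr7:16881984-16882233 on the minus strand, FOXA1 at chr14:37595250-37595499 on the minus strand and SCGB3A2 at chr5:147878461-147878710 on the plus strand.
AGR2: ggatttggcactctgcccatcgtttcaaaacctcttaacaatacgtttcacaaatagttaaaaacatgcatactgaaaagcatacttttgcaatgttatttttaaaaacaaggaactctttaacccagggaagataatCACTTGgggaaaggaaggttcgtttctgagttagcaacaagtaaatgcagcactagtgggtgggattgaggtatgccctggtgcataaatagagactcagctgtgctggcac
AGR3: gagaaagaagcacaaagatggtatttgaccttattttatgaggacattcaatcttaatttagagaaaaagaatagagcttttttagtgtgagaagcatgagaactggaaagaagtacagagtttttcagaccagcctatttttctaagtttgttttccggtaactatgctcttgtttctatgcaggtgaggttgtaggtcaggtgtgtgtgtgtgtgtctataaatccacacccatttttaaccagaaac
FOXA1: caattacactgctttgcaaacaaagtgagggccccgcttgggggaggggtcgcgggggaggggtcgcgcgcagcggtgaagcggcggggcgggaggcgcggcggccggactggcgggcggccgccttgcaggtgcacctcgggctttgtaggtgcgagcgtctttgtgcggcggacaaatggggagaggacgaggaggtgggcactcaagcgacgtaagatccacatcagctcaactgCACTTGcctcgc
SCGB3A2: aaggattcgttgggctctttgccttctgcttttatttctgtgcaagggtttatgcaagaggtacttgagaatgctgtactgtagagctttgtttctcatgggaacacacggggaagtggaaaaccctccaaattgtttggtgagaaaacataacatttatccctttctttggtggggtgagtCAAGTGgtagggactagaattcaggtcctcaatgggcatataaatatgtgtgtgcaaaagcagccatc

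The CAAGTG word was present once in the promoters of all 3 members that carried signal, with its first base 112 bases before the start in AGR2, 12 bases before in FOXA1 and 68 bases before in SCGB3A2. It was not present in the window of AGR3. Of the 7 members with a promoter in the table, represented by 8 windows because NKX2-1 has 2, 4 windows held this word, among them 1 of NKX2-1. Over 35116 promoter windows of the same length, 9.5% held it. The forkhead words were found in 2 of the 8 windows, GTAAATA in SPDEF at 49 bases and TGTTTAC in NKX2-1 at 130 bases before the start, against 5.27% of all windows with either word. The words were chosen after the expression values were known, the motifs do not overlap each other in these windows, and a match in a sequence is not evidence that a factor was bound. TFF1, TFF3 and FOXA2 had no entry in the promoter table.

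AGR2 was bright on every L-INV array and at background on every H-INV array. Its probe ILMN_3307841 read 127, 120 and 117 intensity units on the H-INV arrays and 10628, 10250 and 10183 on the L-INV arrays. The detection p was 0.0766, 0.232 and 0.409 on the H-INV arrays and 0 on each L-INV array. The groups were therefore separated without overlap, and the 3 H-INV arrays lay below the lowest intensity that counted as above background, which was 140 to 145 on those arrays.

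After normalization, AGR2 averaged 4.70 ± 0.197 in H-INV cells, against 13.29 ± 0.0527 in L-INV cells (mean ± SD of log2 intensity, n = 3 each). Because the H-INV value is not well above background, only a bound can be given. On this probe and with the main settings, AGR2 was lower in H-INV cells by at least 230-fold. Its measured log2 difference was -8.60 with these settings but -6.37 without background correction. This bound, like those below, therefore holds for the main settings only. Here and wherever "at least" is used, the average of the 3 bright arrays is set against the dim group, in which each array counts with the weakest signal of any detected probe or with the probe's own signal, whichever is higher.

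A second probe, ILMN_1814151, behaved alike. It read 119, 127 and 137 on the H-INV arrays, none above background, and 2112, 1819 and 1661 on the L-INV arrays, all above background. Its normalized log2 intensity was 4.92 ± 0.301 in H-INV cells, against 10.74 ± 0.0458 in L-INV cells (SD, n = 3 each), a bound of at least 39.1-fold lower. The probes thus agreed in direction and in the absence of overlap, with a smaller measured span on the second one. RNA of a whole culture cannot tell fewer cells that express a gene from less RNA per cell, and this holds for every gene below.

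**Figure D1:**
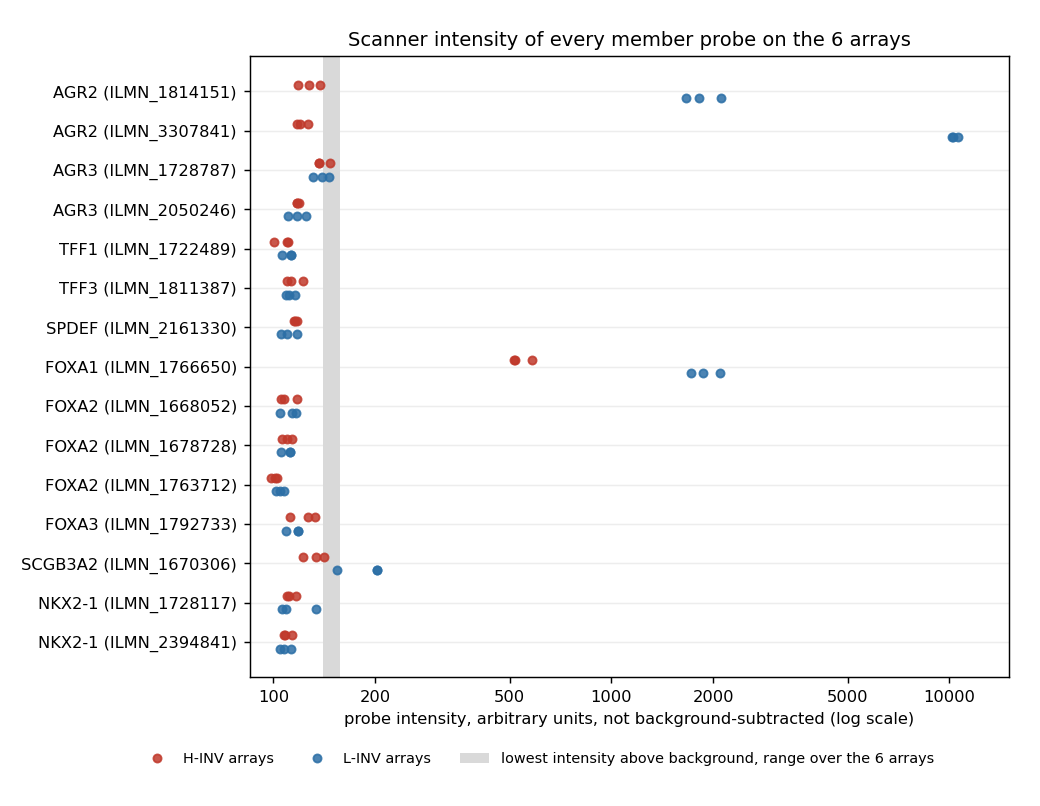
Scanner intensity (arbitrary units, log axis) of all 15 member probes on the 3 H-INV arrays (red, upper row of each pair) and the 3 L-INV arrays (blue, lower row); the grey band spans the lowest intensity that counted as above background on the 6 arrays, 140 to 157. Both AGR2 probes and the FOXA1 probe stand far apart between the subpopulations, SCGB3A2 straddles the band, and the other probes lie at or below it in both.

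AGR3, the nearest right-hand neighbour of AGR2 on chromosome 7 and its closest relative, did not share this pattern. Its probe ILMN_1728787 read 147, 136 and 136 on the H-INV arrays and 146, 140 and 131 on the L-INV arrays, with a detection p under 0.01 on the first H-INV array only (0.00779). A second probe, ILMN_2050246, read 117, 119 and 118 on the H-INV arrays and 118, 125 and 111 on the L-INV arrays, none above background. The groups overlapped on both probes.

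The trefoil genes were not detected in either subpopulation. TFF1, best known as an oestrogen-induced gene of breast and stomach epithelium, read 101, 111 and 110 on the H-INV arrays and 113, 113 and 106 on the L-INV arrays, with detection p-values of 0.660 or more. TFF3, the trefoil peptide of intestinal and airway goblet cells, read 109, 122 and 113 on the H-INV arrays and 116, 111 and 109 on the L-INV arrays, with detection p-values of 0.184 or more. For both genes the ranges of the groups overlapped.

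SCGB3A2 was the other secretory member with a signal, and a weak one. Its probe read 122, 134 and 142 on the H-INV arrays, none above background, and 202, 203 and 154 on the L-INV arrays, all above background. The third L-INV array was closest to the H-INV arrays, but the groups did not overlap. The normalized log2 intensity was 5.09 ± 0.323 in H-INV cells, against 6.29 ± 0.392 in L-INV cells (SD, n = 3 each).

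With the H-INV arrays at background, only a bound can be given here too, and only for the main settings. With these, SCGB3A2 was lower in H-INV cells by at least 1.79-fold (adjusted p = 0.00137 over 10279 genes, limma). SCGB3A2 entered the test only through its signal on the L-INV arrays, which favours a lower value in H-INV cells; with the filter dropped, the adjusted p was 0.00462. SCGB3A2 and AGR2 were the members detected on all 3 L-INV arrays but at background throughout H-INV, a state shared by 266 of 20045 genes (1.33%); AGR2 was chosen for it. No member had the opposite pattern, which 250 genes (1.25%) showed. SDs of SCGB3A2 were the largest among the 3 members with signal, and its value lay near the limit of detection. The measured log2 difference was -1.20 (SE 0.21), but -0.84 in the authors' table, -0.72 with an offset of 50 and -0.43 without background correction, all short of a fold of 2, and with a requirement of signal on all 6 arrays SCGB3A2 could not be tested.

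Among the transcription factors, FOXA1 carried a clear signal in both subpopulations. Its intensity was 520, 514 and 583 on the H-INV arrays and 2099, 1870 and 1723 on the L-INV arrays, above background on all 6. The highest H-INV array was thus well below the lowest L-INV array. The normalized log2 intensity was 8.83 ± 0.0751 in H-INV cells, against 10.77 ± 0.0125 in L-INV cells (SD, n = 3 each), which is 3.84-fold lower in H-INV cells, or -1.94 on the log2 scale (SE 0.07, adjusted p = 7.76e-08, limma).

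**Figure D2:**
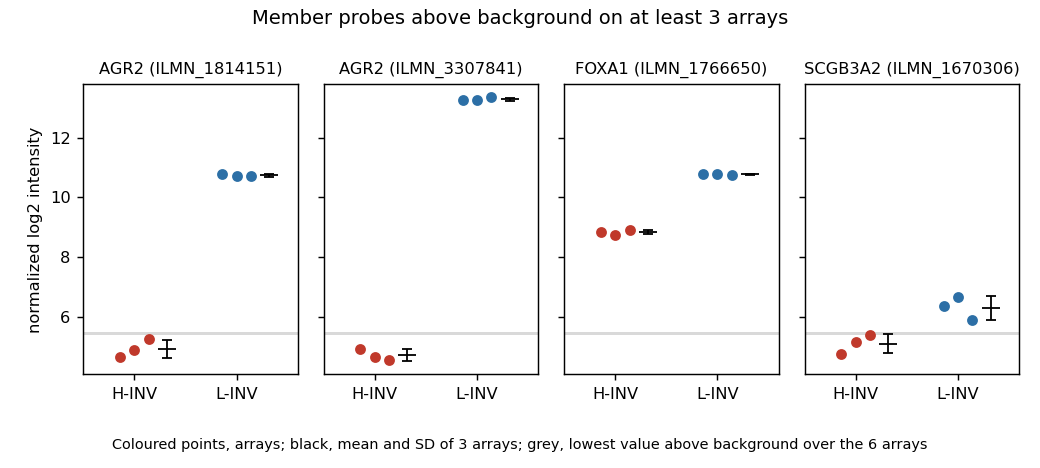
Normalized log2 intensity of the member probes that were above background on at least 3 arrays, for the 3 H-INV arrays (red, left) and the 3 L-INV arrays (blue, right) of each probe; black marks are the mean and SD, and the grey band is the lowest value above background on the arrays. AGR2 lies below the band in H-INV cells on both probes, SCGB3A2 lies at or just below it, and FOXA1 stays above it at 8.83 in H-INV cells, against 10.77 in L-INV cells.

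FOXA1 was thus the only member with signal in both subpopulations, so that the size of its difference could be measured. It passed both an adjusted p under 0.05 and a fold change above 2. Of all genes tested, 58.0% passed the first threshold, 25.4% as lower and 32.6% as higher in H-INV cells. Both thresholds were passed by 10.2% of all genes, 6.02% as lower and 4.22% as higher in H-INV cells. SCGB3A2 passed the first, and its bound of 1.79-fold did not reach a fold of 2.

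The remaining lineage factors stayed at background. FOXA2, a forkhead factor of foregut endoderm and mature airway epithelium, has 3 probes, which read 98.1 to 117 on the H-INV arrays and 102 to 117 on the L-INV arrays. FOXA3, the third member of that family and a goblet cell factor in mouse airway, read 112, 133 and 127 on the H-INV arrays and 118, 118 and 109 on the L-INV arrays. The groups overlapped for FOXA3 and on each FOXA2 probe, so no order between the subpopulations could be read for either gene.

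SPDEF, an ETS factor, read 118, 116 and 115 on the H-INV arrays and 117, 110 and 105 on the L-INV arrays, with overlap between the groups. NKX2-1 read 110, 111 and 117 on the H-INV arrays and 134, 109 and 106 on the L-INV arrays with its first probe, and 108, 108 and 114 on the H-INV arrays and 108, 105 and 113 on the L-INV arrays with its second. The first L-INV array stood above the rest for the first NKX2-1 probe, yet its detection p was 0.119 and the other probe did not share the rise. When the filter on detection was dropped, 0 of the 7 undetected members passed an adjusted p under 0.05 in limma, with adjusted p-values between 0.159 (FOXA3) and 0.958 (FOXA2).

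The genes next to the members were read in the order of the RefSeq annotation, within 1 Mb on either side. A tested neighbour at background throughout 1 subpopulation entered the test only through the other, which favours a higher value there. Of 6 tested neighbours of AGR2, 3 were lower in H-INV cells, none was higher and 3 did not pass, against 25.4% lower and 32.6% higher over all genes. The nearest on the left, TSPAN13, a tetraspanin of the plasma membrane, was the one past both thresholds: it averaged 8.61 ± 0.0293 in H-INV cells, against 11.29 ± 0.145 in L-INV cells (mean ± SD of log2 intensity, n = 3 each), a change of -2.68 (SE 0.08, adjusted p = 4.33e-08, limma). SOSTDC1, a secreted BMP antagonist, was above background in L-INV cells alone and lower in H-INV cells by at least 1.36-fold, and AHR, the aryl hydrocarbon receptor, changed by -0.43 (log2, adjusted p = 0.00126). ANKMY2 (0.08), BZW2 (-0.16) and SNX13 (0.09) did not pass, the values being log2 differences.

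Of 7 tested neighbours of SCGB3A2, 2 were lower in H-INV cells, 3 were higher and 2 did not pass, against 25.4% lower and 32.6% higher over all genes. SCGB3A2 sits between SPINK1 and C5orf46, and both were lower in H-INV cells. C5orf46 averaged 5.51 ± 0.272 in H-INV cells, against 9.04 ± 0.0853 in L-INV cells (mean ± SD of log2 intensity, n = 3 each; above background on 2 of the 3 H-INV arrays), a change of -3.53 (SE 0.13, adjusted p = 1.03e-07, limma). SPINK1, a secreted trypsin inhibitor, was at background in H-INV cells and at least 1.15-fold lower there. Further along, SPINK6 and SPINK13, inhibitors of the same family, were at background in L-INV cells and went the other way, by at least 1.48-fold and at least 6.80-fold.

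Around FOXA1 and NKX2-1, which lie near each other on chromosome 14, changes were small. MIPOL1, the left neighbour of FOXA1, changed by -0.32 (log2, adjusted p = 0.0126), and PAX9, a foregut paired-box factor, by -0.35 (adjusted p = 0.0123). MBIP, the left neighbour of NKX2-1, differed by -0.06 (adjusted p = 0.542). Around the undetected trefoil genes on chromosome 21, 8 of 12 tested genes were higher and 2 lower in H-INV cells, against 32.6% higher and 25.4% lower over all genes. ABCG1, a sterol exporter next to TFF3, was at least 2.05-fold lower, whereas RIPK4, a keratinocyte kinase, was 1.43 and MX1, an interferon-induced GTPase, 1.09 higher on the log2 scale. Near SPDEF, 3 of 18 tested genes were lower and 4 higher, and near FOXA3, 3 of 28 were lower and 12 higher, to be read against the same shares. Of these, BLTP3A near SPDEF fell by 1.07 on the log2 scale. Near FOXA3, APOE, an apolipoprotein at background in L-INV cells, was higher in H-INV cells by at least 1.64-fold.

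**Figure D3:**
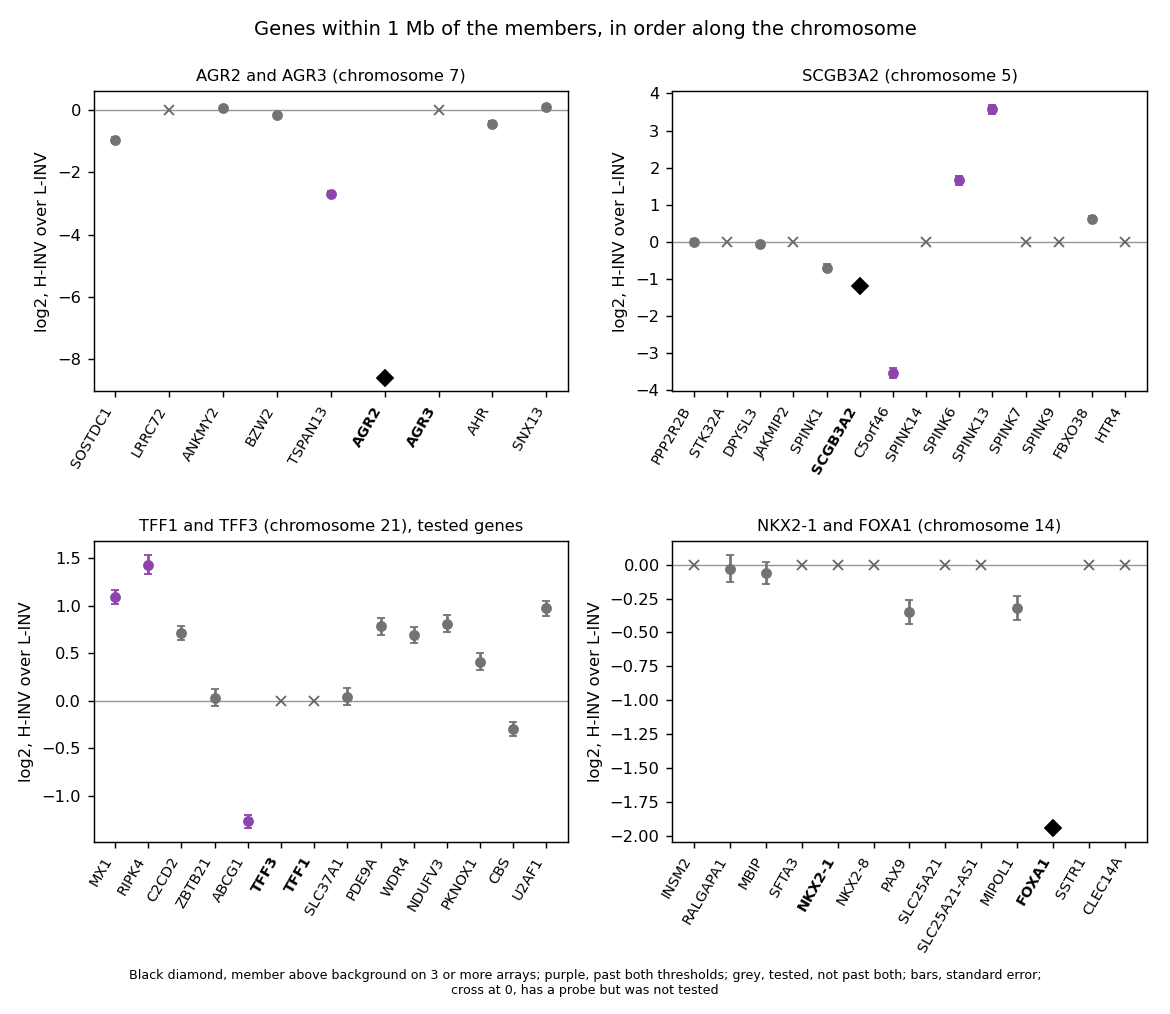
Fitted log2 difference, H-INV over L-INV, with its standard error for genes within 1 Mb of AGR2 and AGR3, SCGB3A2, TFF1 and TFF3, and NKX2-1 with FOXA1, in the order of the chromosome; diamonds are members with signal, purple points passed both thresholds, crosses had no test, and genes at background in 1 subpopulation are drawn at their measured difference. TSPAN13 at -2.68 and C5orf46 at -3.53 lie directly beside AGR2 and SCGB3A2. The tested genes around NKX2-1 and FOXA1 stay between -0.35 and -0.03, and those within 1 Mb of FOXA1 are PAX9 at -0.35 and MIPOL1 at -0.32.

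Genes whose pattern over the 6 arrays was most like that of a member were ranked by the root mean square distance between log2 values centred on each gene's mean. The 5 nearest to AGR2, at distances of 0.330 to 1.49, included CDH11, a mesenchymal cadherin, COL8A1, a short-chain collagen, DLG2 and ADGRG2, which like AGR2 were at background on all 3 H-INV arrays, so that their order carries no meaning, and GALC, the lysosomal galactosylceramidase, which was above background on all 6 arrays. Nearest to FOXA1 were ALDOC, an aldolase (0.0313), P3H3, a collagen prolyl hydroxylase (0.0381), FAM210B (0.0458), ISG20 (0.0471) and NEK7, a mitotic kinase (0.0497). None of these 10 genes belongs to the secretory lineage lists, and with 2 groups of 3 arrays the measure mostly ranks genes by the size of their difference.

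The wider secretory programme was read from lists of genes known for it, against a median of 0.05 on the log2 scale over all genes tested. Shares of called genes are to be read against the 25.4% lower and 32.6% higher over all genes; no list was tested as a whole. Of 35 goblet and club cell secretory genes with a probe, 29 had none above background on any array, including MUC5B, TFF2 and SCGB1A1. Of the 5 tested, 3 were lower, 1 was higher and 1 did not pass, with a median of -0.31. SLPI, an antiprotease of airway mucus, averaged 9.33 ± 0.118 in H-INV cells, against 7.44 ± 0.0568 in L-INV cells (mean ± SD of log2 intensity, n = 3 each) and so moved opposite to AGR2 and SCGB3A2 (1.90, SE 0.08, adjusted p = 2.32e-07, limma). XBP1, a regulator of the secretory apparatus, fell by 0.79 and GALNT12, which starts mucin-type glycosylation, fell by 0.90 on the log2 scale, while MUC1, a membrane mucin, differed by -0.05 (adjusted p = 0.695).

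Alveolar genes gave a like picture of non-detection beside NKX2-1. Of 19 with a probe, 15 had none above background on any array, among them SFTPB, SFTPC, NAPSA and SFTA3, which are NKX2-1-dependent or lie next to it. Of the 4 tested, HOPX, a homeodomain protein of alveolar type I cells, fell by 1.43 (log2), and the other 3 did not pass; the median was 0.09. Of 33 other foregut and airway transcription factors with a probe, 16 were tested, 8 were higher and 5 lower in H-INV cells (median 0.32), against 32.6% higher and 25.4% lower over all genes. SOX2, a factor of the proximal airway, was 2.24 higher on the log2 scale. It was above background on only 2 of 3 L-INV arrays, and its change was 1.10 without background correction. TBX3, CEBPD and IRX3 were 1.47, 1.40 and 1.31 higher. GRHL3 was at background in L-INV cells and higher in H-INV cells by at least 1.88-fold, and SOX9, a distal lung factor, fell by 0.73. FOXA1 fell, while 8 of these 16 factors rose.

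AGR2 belongs to the disulphide isomerase family, and other genes of that family and of oxidative folding were read beside it. Of 23 tested, 13 were lower in H-INV cells, none was higher and 10 did not pass, with a median of -0.32, against 25.4% lower and 32.6% higher over all genes; 1 gene was called higher in the authors' table, with an offset of 50 and with signal required on all 6 arrays. TMX4, a membrane thioredoxin of the endoplasmic reticulum, changed most: 8.34 ± 0.0820 in H-INV cells, against 11.36 ± 0.0600 in L-INV cells (mean ± SD of log2 intensity, n = 3 each; -3.02, SE 0.07, adjusted p = 8.81e-09, limma). KDELR3, a receptor that retrieves endoplasmic reticulum proteins, fell by 1.18 and QSOX1, a secreted sulphydryl oxidase, fell by 1.12. TXNDC12, which with AGR2 and AGR3 forms a subfamily, fell by 0.67 (adjusted p = 3.23e-05), and the abundant isomerases P4HB and PDIA6 fell by 0.38 and 0.45. These changes were small beside the bound for AGR2.

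AGR2, TFF1 and FOXA1 are also known together from the luminal programme of breast cancer. Of 24 other luminal and oestrogen-responsive genes with a probe, 8 had none above background on any array, among them ESR1, PGR and GATA3. Of the 14 tested, 11 were lower in H-INV cells, none was higher and 3 did not pass (median -0.57). Over all genes, 25.4% were lower and 32.6% higher. With an offset of 50, 1 gene of this list was called higher. IGFBP4, an IGF-binding protein, fell by 4.45, KRT19, a simple epithelial keratin, fell by 4.12, NRIP1, a nuclear receptor corepressor that 2 of 3 H-INV arrays measured, fell by 3.23 and CA12, a carbonic anhydrase, fell by 2.14 on the log2 scale. ERBB2 differed by 0.22 (adjusted p = 0.0697). KRT8, KRT18 and KRT19 of this list are also epithelial markers. Among 11 tested partners and effectors reported for AGR2 and trefoil factors, 4 were lower, 2 higher and 5 did not pass (median -0.05): EGFR, whose delivery to the cell surface AGR2 assists, fell by 2.33 (by 1.11 on a second probe), HSPA5, the chaperone BiP, fell by 1.05, and LYPD3, a proposed AGR2 receptor, differed by -0.11 (adjusted p = 0.437).

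**Figure D4:**
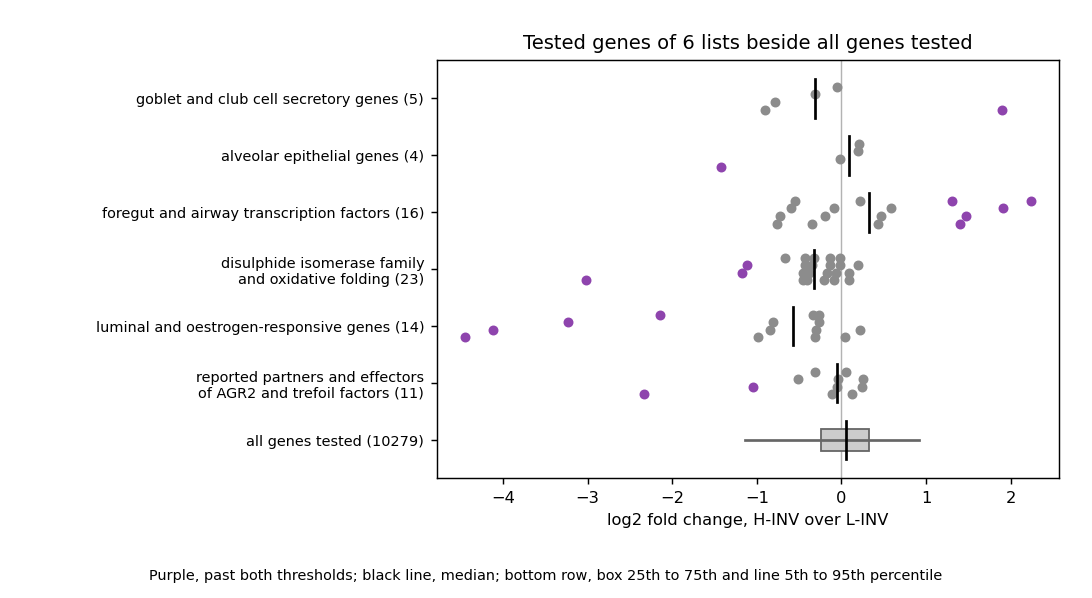
Log2 fold change, H-INV over L-INV, of the tested genes of 6 lists related to the members (points; purple, past both thresholds; black line, median) beside the distribution over all 10279 genes tested (box, 25th to 75th percentile; line, 5th to 95th). The disulphide isomerase and luminal lists have medians of -0.32 and -0.57 against 0.05 for all genes, and the secretory and alveolar lists hold few tested genes.

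The labelled cell type was checked against epithelial markers, of which 8 of 12 were tested. Of these 8, 5 were lower, 2 higher and 1 did not pass, against 25.4% lower and 32.6% higher over all genes. CDH1, CLDN4, ESRP1 and ESRP2 had no probe above background on any array. KRT8 and KRT18 were above background on all 6 arrays, KRT19 fell by 4.12 as given above and CLDN7 by 0.70, EPCAM was not above background on any H-INV array and was at least 1.90-fold lower there, and KRT7 was 1.09 higher in H-INV cells on the log2 scale. Markers of other cell types were largely undetected, with 16 of 22 without a probe above background on any array, and their summed normalized intensity over 32 probes was 3238 to 3533 on the H-INV arrays and 3152 to 3350 on the L-INV arrays. Of the other 6, 4 were tested. CD14 fell by 1.51 and ACTA2 by 0.48 on the log2 scale, and CHGA, at background in H-INV cells, was at least 1.23-fold lower there. COL3A1 was 1.12 higher in H-INV cells. The stromal markers COL3A1 and ACTA2 were bright, with mean log2 intensities of 10.36 and 10.27 in H-INV cells, against 9.24 and 10.76 in L-INV cells. Their opposite changes are not visible in the summed intensity. The remaining 2 were not tested: COL1A1 was above background on 2 H-INV arrays and no L-INV array, and PDGFRB on no H-INV array and 2 L-INV arrays. The part of these markers in the results for AGR2, FOXA1 and SCGB3A2 was not tested. Over all genes, the correlation was 0.995 to 0.996 for arrays within a subpopulation and 0.920 to 0.927 for an H-INV with an L-INV array, and 16368 to 16985 probes per array were above background.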

How the data were processed

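RNA of H460 H-INV and L-INV cells was hybridized to Illumina HT-12 v4 BeadChips. The authors deposited a scanner table of raw linear probe intensity for 47322 probes, without background subtraction or normalization, with a detection p-value beside each intensity, deposited as computed against the negative controls. A second deposited table holds the authors' background-corrected, quantile-normalized intensity for 47320 probes (lowest value -24.0) and was used as an alternative, with 40 added before log2. The submitters' processing notes name GenomeStudio and Partek without versions.

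In R 4.3.3, limma 3.58.1 corrected the raw intensity with normexp (offset 16), the negative control level being estimated through the detection p-values. Arrays were then quantile normalized and put on the log2 scale. A probe was kept where its detection p was below 0.01 on 3 or more of the 6 arrays (16941 probes), and the brightest probe stood for each of 10279 genes. Gene names came from the platform's annotation; 30072 of 30111 probes with 1 symbol were found by Entrez ID in the RefSeq gene table, and 8 probes with several symbols were not used. H-INV and L-INV were compared by a two-sided moderated test (lmFit, eBayes), with p-values adjusted over all genes after Benjamini and Hochberg, at an adjusted p under 0.05 and a fold change above 2. Genes named were the members; up to 6 genes past both thresholds per list and among neighbours, except a probe annotated to a microRNA; and the 5 genes most alike AGR2 and FOXA1. Others, such as GALNT12, XBP1, MUC1, SOX9, TXNDC12, P4HB, PDIA6, ERBB2, LYPD3, MIPOL1, PAX9, MBIP, SPINK1 and the undetected genes, were named after their values were seen. The members and lists were chosen with earlier results of these data known. Precision is limited by the number of arrays; standard errors of the log2 fold change had a median of 0.0824. In data simulated from the real means and spreads, limma found 100 of 100 genes changed 3-fold and 74 of 100 changed 1.5-fold. It made 11 false calls by adjusted p. Far fewer genes were changed there than were called in the real arrays, so the simulation does not gauge false calls in these.

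Alternatives were the authors' table, other background corrections, scalings, filters and probe choices, an analysis of variance as in the study's methods, a block on the replicate number and leaving out each array.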

Additional observations from a re-analysis of the deposited data

How the results depend on the processing

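FOXA1 stayed lower in H-INV cells and past its threshold in limma or analysis of variance under all 16 alternatives, with log2 fold changes of -1.97 to -1.73 and adjusted p-values of 1.14e-17 to 0.000155 (each array left out, -1.97 to -1.90). The measured log2 difference of SCGB3A2 was -1.42 to -0.43 under the 15 that gave a value (each array left out, -1.42 to -1.02). The adjusted p-values were 2.08e-05 to 0.0335 in limma or analysis of variance. Its fold was under 2 in the authors' table (-0.84), with an offset of 50 (-0.72) and without background correction (-0.43). SCGB3A2 passed the detection filter only through its L-INV arrays, which favours a lower value in H-INV cells. With the filter dropped, its adjusted p was 0.00462 (limma). The measured log2 difference of AGR2, taken with its H-INV arrays at their background values and so no estimate of its size, was -8.60 with the main settings, -7.78 in the authors' table, -6.37 without background correction, -7.39 with an offset of 50, -7.21 as the mean of its probes, -5.82 on its other probe and -8.72 to -8.51 with each array left out. Neither AGR2 nor SCGB3A2 had a value when signal was required on all 6 arrays.

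Genes past both thresholds numbered 1053 with the main settings of this re-analysis, which is not the study's own count. They numbered 467 without background correction and 691 with an offset of 50. With signal required on all 6 arrays, which tests fewer genes, the count was 639. It was 1033 to 1088 with each array left out. Without the detection filter, the goblet and club cell list had 5 lower genes and the alveolar list 3, and the partners list had 1 higher gene. The disulphide isomerase list had 1 higher gene in the authors' table, with an offset of 50 and with signal on all 6 arrays, and the luminal list had 1 with an offset of 50; the cause was not tested. For the 40 further genes past both thresholds (from the lists, the neighbours and the genes most alike), direction and an adjusted p under 0.05 held at all 626 values. These genes were picked for passing both thresholds in these same arrays, so this is no independent support. Some of them passed the detection filter only through the subpopulation in which they were higher. The fold of the 40 genes was 2 or less for 6 in the authors' table, 8 with an offset of 50 and 15 without background correction. Of these genes, 15 other probes gave the same call by adjusted p. Other named genes were not run under the alternatives one by one.

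Deviations of H-INV and L-INV arrays with the same replicate number correlated at -0.0665, -0.0194 and -0.0926. Those with different numbers correlated at -0.0350 to 0.0984. With so few arrays, these values cannot decide whether sets with the same number shared a selection or a day. With the replicate block in the fit, 2504 genes were lower and 3143 higher, FOXA1 had an adjusted p of 4.00e-06 and SCGB3A2 of 0.00326 (limma), and no call on a member changed. Signal over background limits what can be read: a difference in the 7 members without usable signal could not be measured. The size of the fall in AGR2 is known only as a bound for a given probe and setting. Position on the chip cannot be told apart from subpopulation.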
